A study of Mus musculus with 4 samples.

Results

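Glycolysis enzyme genes and a glucose transporter gene, 10 in all, were followed in single-cell RNA-sequencing of colonic macrophages and monocytes: Gpi1, Aldoa, Tpi1, Gapdh, Pgk1, Pgam1, Eno1, Pkm and Ldha, which encode enzymes of the pathway, and Slc2a1, which encodes a glucose transporter. Members were found by symbol, and 9 of the 10 had a row among the 11820 genes of the count matrix. The expression of Slc2a1 was not analysed here. Male C57/Bl6N mice, 6 to 7 weeks old, were given chow (replicates 9 and 11) or a coconut-based high-fat diet (HFD, 60% fat, replicates 1 and 3) for 1 week, with n = 2 mice per diet. Live CD45+Lin-CD11b+CD24- cells that were Ly6C+ or CD64+ were sorted from the lamina propria, and each mouse was loaded into 1 well of a 10x Genomics 3′ v2 run, so mouse, well and library cannot be told apart. Each RNA molecule carried a unique molecular identifier (UMI), and levels are counts per 1e6 UMIs (CPM) of the cells summed for a mouse. Values are given in the order chow replicates 9 and 11, then HFD replicates 1 and 3.

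Glycolysis splits glucose into pyruvate and yields ATP without oxygen, and lactate dehydrogenase turns pyruvate into lactate while restoring the NAD+ that the pathway needs. In macrophages, inflammatory activation is known to raise glycolytic flux, often through the transcription factor HIF-1 and the kinase mTOR, whereas resting tissue macrophages rely more on mitochondrial respiration. In the gut, Ly6C-high monocytes enter from blood, gain MHC class II while they lose Ly6C, and mature into resident macrophages that make complement C1q.

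Cells were placed on this path by genes that are not members. A C1q level (C1qa, C1qb and C1qc) above 2355 CPM of the cell defined the resident stage, and the cells below it were divided by MHC class II (H2-Aa, H2-Ab1 and H2-Eb1) and Ly6c2 into a monocyte stage (Ly6c2 only), a transitional stage (both) and an intermediate stage (MHC class II only). The matrix held 5420 cells, 2906 from chow and 2514 from HFD mice, with 3824228 to 7947893 UMIs per mouse, and 23 barcodes occurred in more than 1 mouse. The resident stage held 764, 1849, 458 and 653 cells, the intermediate stage 29, 36, 132 and 252, and the monocyte stage 58, 55, 237 and 283. The transitional stage held 1 and 18 cells on chow and 74 and 286 on HFD, under the minimum of 20 on chow, and was compared within HFD mice only. Macrophage genes were present (Csf1r at 614 to 898 CPM and Lyz2 at 18330 to 24650 CPM in the resident stage), whereas Itgam, which encodes the CD11b of the sort, did not exceed 5.68 CPM in the monocyte, intermediate or resident stage of any mouse. The diets also differed in other genes of the same stages. In the resident stage, 7 monocyte genes summed to 402 and 594 CPM with chow and 3231 and 4109 CPM with HFD, 9 resident macrophage genes to 68100 and 65730 against 24520 and 17530 CPM, 9 dissociation-response genes to 20710 and 19630 against 11110 and 9886 CPM, and 3 plasma and B cell genes to 2637 and 3080 against 137 and 103 CPM. In the monocyte stage these 3 genes reached 47200 and 33180 CPM with chow and 116 and 73.9 CPM with HFD. Epithelial genes stayed at or below 19.9 CPM in both stages. Dendritic cell genes (6) summed to 26.9 and 27.7 against 174 and 143 CPM in the resident stage. The T cell and stromal lists (5 of 5 genes with a row in each) stayed at or below 65.6 CPM in both stages. Only 1 of 5 neutrophil, 1 of 3 eosinophil and 1 of 4 mast cell genes had a row, so these cell types could hardly be checked. In the chow intermediate stage the 7 monocyte genes summed to 3456 and 5812 CPM and the 9 resident macrophage genes to 18720 and 17070 CPM. These sums were near those of the HFD resident cells. The name resident thus marks a C1q level, and resident cells of the diets may differ in maturity. The part of these differences in the results below was not tested.

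The members differed in how well they could be counted. Gapdh, whose enzyme oxidises the 3-carbon sugar and which often serves as a reference gene, had 41 UMIs over all cells, at most 5.68 CPM in any stage with at least 20 cells, and failed the filter of every comparison. Of the last 500 bases of its transcript, where 3′ reads fall, 94.9% of all 31-base words also occurred in other genes (253 of them), so its count says little about its RNA. The same share was 84.3% for Eno1, 23.2% for Aldoa, 16.2% for Gpi1, 11.1% for Pgk1 and 2.55% for Tpi1, and 0 for Pkm, Ldha and Pgam1. How the counting treated reads that fit several genes is not given in the sources used here, so the levels of Eno1, Aldoa, Gpi1 and Pgk1 are uncertain. Totals were 13924 UMIs for Pkm, 11622 for Ldha, 8081 for Aldoa, 5040 for Pgk1, 4497 for Gpi1, 3006 for Tpi1, 2214 for Pgam1 and 1960 for Eno1.

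Which members change as monocytes mature was asked within each diet. On chow, the log2 difference between resident and monocyte stage was negative for all 8 tested members, and it passed an FDR of 1% for Pkm and Eno1. Pkm (chromosome 9, 59656368 to 59679375, plus strand, GRCm38), the pyruvate kinase that yields ATP in the last step, stood at 1074 and 783 CPM in chow monocytes, 519 and 628 CPM in the intermediate stage and 347 and 287 CPM in resident cells. Its log2 difference, resident minus monocyte, was -1.32 (SE 0.17, Benjamini-Hochberg adjusted p = 2.7e-05, edgeR quasi-likelihood test, as for every adjusted p given here). Eno1 (chromosome 4, 150236721 to 150248879, plus strand), an enolase, stood at 200.3 and 102 CPM, then 130 and 126 CPM, then 49.9 and 28.9 CPM, a log2 difference of -1.71 (SE 0.33, edgeR adjusted p = 0.0011). The resident levels of both chow mice lay below both monocyte levels in all 8 tested members, so this does not set Pkm and Eno1 apart. The share of all genes with this pattern was not counted. The 3 plasma and B cell genes also fell, from 47200 and 33180 CPM in these monocytes to 2637 and 3080 CPM in the resident cells, and their part was not tested. Together 2 of 8 members were called lower in resident cells of chow mice, against 5.32% of the 5550 genes tested. The other 6 had log2 differences between -0.89 (Pgam1, edgeR adjusted p = 0.045) and -0.10 (Ldha, edgeR adjusted p = 0.77). Between neighbouring stages no member passed on chow, with 0 of 8 called by edgeR between monocyte and intermediate stage (1.15% of all genes; 1 member at an unadjusted p under 0.05) and 0 of 8 between intermediate and resident stage (3.17% of all genes; 3 members at an unadjusted p under 0.05).

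On HFD, Ldha, Tpi1, Eno1 and Pgam1 had their highest levels in the transitional and intermediate stages in both mice. Only Ldha and Tpi1 had a called difference between these stages and their neighbours. Ldha (chromosome 7, 46841475 to 46855627, plus strand), the muscle-type lactate dehydrogenase chain, stood at 702 and 613 CPM in monocytes, 1048 and 915 CPM in the transitional stage, 1101 and 1155 CPM in the intermediate stage and 699.8 and 804 CPM in resident cells. It rose from monocyte to transitional stage by 0.57 (SE 0.12, edgeR adjusted p = 0.0020) and fell from intermediate to resident stage by 0.45 (SE 0.11, edgeR adjusted p = 0.0095), both on the log2 scale. The fall was close to the threshold and was not called when the contrast of all mice was fitted in HFD mice alone. Dendritic cell genes summed to 387.5 and 258 CPM in the intermediate and 174 and 143 CPM in the resident stage of these mice, and 11 cycling genes to 160.4 and 319 against 75.4 and 149 CPM, and their part was not tested. Tpi1 (chromosome 6, 124810586 to 124814296, minus strand), which interconverts the 3-carbon products of aldolase, stood at 125 and 149 CPM, 294 and 262 CPM, 245 and 294 CPM, and 176 and 186 CPM in these stages. Its rise from monocyte to transitional stage was 0.99 (SE 0.17, edgeR adjusted p = 1.2e-04), and both transitional levels lay above both monocyte levels. These were 2 of 8 members called higher in the transitional stage against 2.12% of the 5601 genes tested. From transitional to intermediate stage 0 of 8 members were called by edgeR (1.8% of all genes; 1 at an unadjusted p under 0.05), so the order of these stages was not resolved. Between intermediate and resident stage only Ldha was called lower in this fit, 1 of 8 members against 1.96% of all genes. No member was called lower in the other fit of HFD mice alone. Pkm stood at 1256 and 1493 CPM in HFD monocytes, then at 1234 and 1306 CPM and 1047 and 1143 CPM, and at 731 and 903 CPM in resident cells. Its log2 difference between resident and monocyte stage was -0.66 (SE 0.11, edgeR adjusted p = 1.1e-05), 1 of 8 members called lower against 10.3% of all genes.

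**Figure D1:**
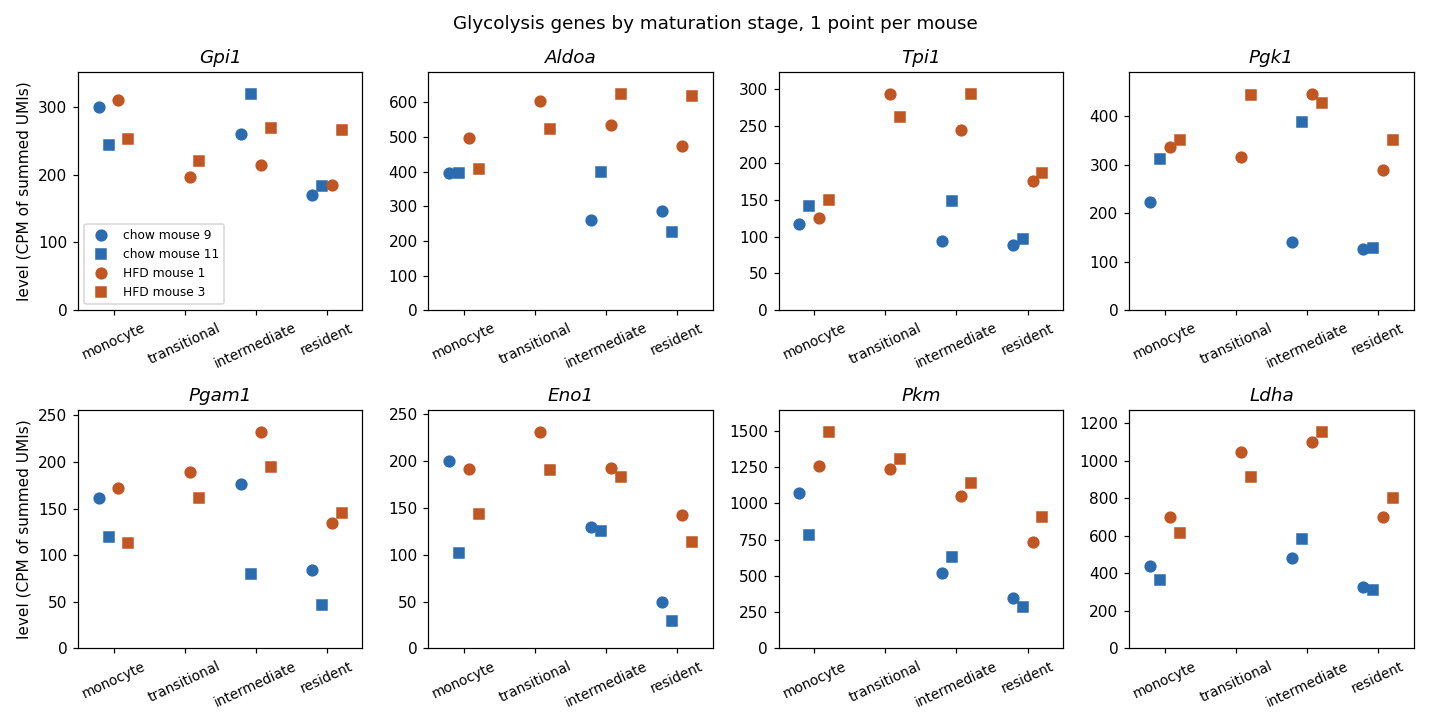
Level of 8 glycolysis genes in CPM (vertical axes, from 0, a scale for each gene) by maturation stage, with 1 point per mouse (blue for chow, orange for HFD; stages with under 20 cells in a mouse are left out). Pkm was highest in the monocyte stage in each mouse, and in the resident stage its HFD points, at 731 and 903 CPM, lie above its chow points, at 347 and 287 CPM.

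With all 4 mice in 1 fit and the mouse as a block, Pkm alone was called lower in resident than in monocyte stage (log2 difference -0.98, SE 0.16, edgeR adjusted p = 6.8e-05), 1 of 8 members against 9.27% of the 5554 genes tested. Without the block the log2 difference of Pkm was -0.90 and this call was lost (edgeR adjusted p = 0.056). Eno1 stood at -0.83 (SE 0.24, edgeR adjusted p = 0.011) and depended on the mice, at -1.15 without HFD replicate 1 (edgeR adjusted p = 0.0049) and -1.12 without HFD replicate 3 (0.0077), but -0.53 without chow replicate 9 (0.0997) and -0.65 without chow replicate 11 (0.058). Aldoa (0.01) and Ldha (0.11) are given no direction in this contrast, since both turned negative, to -0.15 and -0.05, when the library size was used without TMM scaling. Between resident and intermediate stage edgeR called 0 of 8 members (4.07% of all genes), where all 8 differences were negative and 6 had an unadjusted p under 0.05; DESeq2 and edgeR's likelihood-ratio test called 0. Between intermediate and monocyte stage edgeR called 0 of 8 (6.37% of all genes; 3 at an unadjusted p under 0.05), and DESeq2 and the likelihood-ratio test called 1 each, as did edgeR without chow replicate 9.

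Differences between diets were called in the resident stage, which here means the cells above the C1q threshold. Of the 8 members tested there, 6 passed an FDR of 1% with a higher level on HFD and none was lower, whereas 5.35% of the 5065 genes tested were called higher. In 8 of 8 members the lowest HFD level was above the highest chow level, as it was in 42% of the 5065 genes, and the median log2 fold change was 1.03 for the members and -0.02 for all genes tested. No exact test of 2 mice against 2 can give a p under 0.33, so the calls rest on the spread that edgeR shares between genes.

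Aldoa (chromosome 7, 126795234 to 126800751, minus strand), the aldolase that cuts the 6-carbon sugar, rose from 285 and 225 CPM with chow to 473 and 617 CPM with HFD. Its log2 fold change was 0.95 (SE 0.17, edgeR adjusted p = 0.0067). In Tpi1 the levels were 88.4 and 96.5 CPM against 176 and 186 CPM, with little spread within a diet (log2 fold change 0.82, SE 0.14, edgeR adjusted p = 0.0046). Pgk1 (chromosome X, 106187100 to 106203699, plus strand), the phosphoglycerate kinase of the earlier ATP-yielding step, stood at 125 and 128 CPM with chow and at 289.6 and 350.6 CPM with HFD. Its chow mice were nearly equal and its rise was 1.19 on the log2 scale (SE 0.14, edgeR adjusted p = 0.0011). Eno1 rose from 49.9 and 28.9 CPM to 142 and 114 CPM, the largest fold change among the 8 members in this stage (log2 1.58, SE 0.27, edgeR adjusted p = 0.0047). Pkm rose from 347 and 287 CPM to 731 and 903 CPM (log2 fold change 1.22, SE 0.16, edgeR adjusted p = 0.0016). Ldha rose from 328 and 309 CPM to 699.8 and 804 CPM (log2 fold change 1.09, SE 0.13, edgeR adjusted p = 0.0011). In each of these genes, and in Pgam1, the lowest HFD level exceeded the highest chow level by more than the gap between mice of 1 diet. The share of all genes with this pattern was not counted.

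The other 2 members did not pass with edgeR's quasi-likelihood test. Pgam1 (chromosome 19, 41911923 to 41918660, plus strand), a phosphoglycerate mutase, stood at 83.8 and 47.0 CPM with chow and 135 and 145 CPM with HFD, with a wide gap between the chow mice (log2 fold change 0.97, SE 0.26, edgeR adjusted p = 0.029). It was called with DESeq2 (adjusted p = 0.0051), with edgeR's likelihood-ratio test (0.0038), with library size in place of TMM (0.0070), and with no filter on low counts (0.0052). The value rested on the chow mice, at 1.44 without chow replicate 9 (edgeR adjusted p = 5.2e-05) and 0.59 without chow replicate 11 (0.038), and its adjusted p ranged up to 0.18 over all settings. A fit without 1 mouse leaves 1 mouse of that diet, which is assumed to vary like the mice of the other diet. Gpi1 (chromosome 7, 34201330 to 34230336, minus strand), the isomerase that acts after hexokinase, stood at 170.1 and 183 CPM with chow and 185 and 266 CPM with HFD. Its log2 fold change was 0.20 (SE 0.17, edgeR adjusted p = 0.44), and HFD replicate 1 was close to the chow mice. Gapdh had 3 and 11 UMIs on chow and 4 and 5 UMIs on HFD and was not tested. Without HFD replicate 1 and without HFD replicate 3, 0 of 8 members were called in each case. The log2 fold changes of the 6 genes called with all mice stayed between 0.77 and 1.75 in these fits and edgeR's adjusted p between 0.011 and 0.096. Over all genes the calls then fell from 271 higher and 260 lower to 52 and 61 without HFD replicate 1 and to 25 and 7 without HFD replicate 3. With library size in place of TMM the split was 502 higher and 246 lower.

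**Figure D2:**
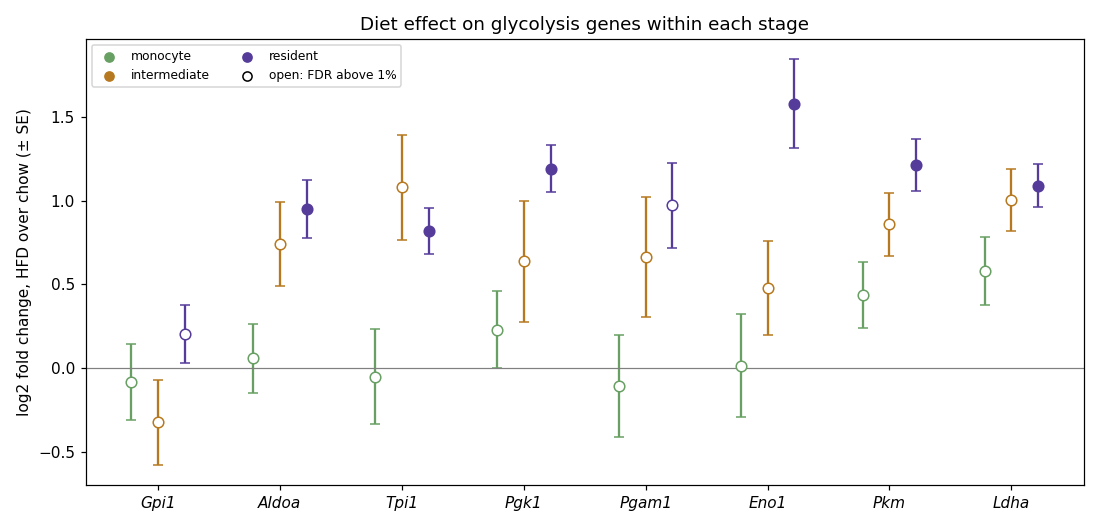
Log2 fold change, HFD over chow (vertical axis, with bars of 1 standard error), of 8 glycolysis genes in the monocyte, intermediate and resident stages, from edgeR on sums of 2 mice per diet. Filled points passed an FDR of 1%; these are 6 genes in the resident stage and none in the other 2 stages.

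The shift was also seen per cell. When each cell was reduced to 2000 UMIs, resident cells held a median of 2 and 2 UMIs of the 9 members on chow and of 4 and 6 on HFD, and the upper quartiles were 4 and 3 against 7 and 9 UMIs. Medians without this reduction were 5, 4, 7 and 11 UMIs, and 75, 313, 91 and 104 cells with fewer UMIs were left out. Summed over the members, resident cells held 1479 and 1306 CPM with chow and 2833 and 3388 CPM with HFD. Monocytes of the same mice summed to 2910 and 2469 CPM with chow and 3594 and 3526 CPM with HFD, above the resident cells in each mouse.

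In the monocyte stage no member passed (0 of 8 by edgeR against 0.513% of the 4486 genes tested; 2 members at an unadjusted p under 0.05, and 0 by DESeq2 and by the likelihood-ratio test). Ldha stood at 439.5 and 363 CPM with chow and 702 and 613 CPM with HFD (log2 fold change 0.58, SE 0.20, edgeR adjusted p = 0.24). Pkm stood at 1074 and 783 CPM against 1256 and 1493 CPM (log2 fold change 0.44, SE 0.20, edgeR adjusted p = 0.40). The lowest HFD level was above the highest chow level in these 2 genes, in Aldoa and in Pgk1, 4 of 8 members, and in 29.9% of the genes tested. For the other 6 members the log2 fold change was between -0.11 (Pgam1, SE 0.31) and 0.23 (Pgk1, SE 0.23), and the sign changed with the setting in 5 of them. In this stage the 7 monocyte genes summed to 14110 and 19470 CPM with chow and 27110 and 25680 CPM with HFD. The 9 resident macrophage genes summed to 6242 and 9162 against 3435 and 3995 CPM, and the part of these differences was not tested.

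Of the stages compared between diets, the intermediate stage held the fewest chow cells, and its errors were wide. Ldha stood at 483.5 and 582 CPM with chow and 1101 and 1155 CPM with HFD (log2 fold change 1.01, SE 0.19, edgeR adjusted p = 0.075). Tpi1 stood at 94.4 and 148 CPM against 245 and 294 CPM (log2 fold change 1.08, SE 0.32, edgeR adjusted p = 0.19). The HFD levels exceeded both chow levels for 7 of 8 members, all but Gpi1, and for 31.5% of the 4791 genes tested. In these cells the 9 resident macrophage genes summed to 18720 and 17070 CPM with chow and 3718 and 3755 CPM with HFD. The 7 monocyte genes summed to 3456 and 5812 against 7925 and 8392 CPM. Dendritic cell genes stood at 106 and 217 against 387.5 and 258 CPM, and cycling genes at 59.0 and 11.4 against 160.4 and 319 CPM. The part of these lists in the result was not tested. Of the 8 members edgeR called 0 (0.0626% of all genes; 4 members at an unadjusted p under 0.05). DESeq2 called 0 and edgeR's likelihood-ratio test 2, and without chow replicate 11 the quasi-likelihood test called 1, Ldha.

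Whether resident cells responded more than monocytes was tested directly, with a term for each mouse. The difference in log2 fold change, resident minus monocyte, was positive for all 8 members, from 0.22 (Gpi1) to 1.48 (Eno1, SE 0.29, edgeR adjusted p = 0.013), with a median of 0.83 against 0.01 for all genes. None passed (0 of 8 against 0.969% of the 5365 genes tested), while 6 had an unadjusted p under 0.05. DESeq2 called 0. Eno1 was near the threshold and was called under 8 alternatives, with adjusted p between 9.8e-05 (likelihood-ratio test) and 0.0093 (cells with high UMIs removed), but in no fit without 1 mouse. The likelihood-ratio test also called Pkm (0.0088), and stages taken from Ward clusters also called Pgk1 (0.0011) and Aldoa (0.0056). Whether the responses of the stages differ thus depended on the setting for these 4 genes and was not shown for the other 4.

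Over all cells of a mouse, where the shares of the stages enter as well, 5 of 8 members were higher on HFD against 7.67% of the 4955 genes tested (380 higher and 425 lower, or 679 and 304 without TMM). These were Pkm (409 and 315 CPM against 964 and 1105 CPM, log2 fold change 1.30), Pgk1 (1.13), Ldha (1.08), Tpi1 (0.84) and Aldoa (0.79), with edgeR adjusted p between 0.0011 and 0.0081. Eno1 stood at 1.48 (SE 0.31, edgeR adjusted p = 0.014) and was called with DESeq2 (adjusted p = 1.4e-05), the likelihood-ratio test (7.8e-05), library size in place of TMM (0.0071) and no filter (0.0032). It was 2.03 without chow replicate 9, 1.03 without chow replicate 11, 1.32 without HFD replicate 1 and 1.61 without HFD replicate 3, with edgeR adjusted p between 6.4e-04 and 0.069. Without HFD replicate 3 no member was called, and without HFD replicate 1 3 were. Pgam1 stood at 0.96 (SE 0.27, edgeR adjusted p = 0.034) and was called with DESeq2 (adjusted p = 0.0029) and the likelihood-ratio test (0.0043). Without single mice its log2 fold change ranged from 0.58 to 1.43, and that of Aldoa from 0.63 to 0.96. When the monocyte, intermediate and resident stages were weighted equally, the 9 members summed to 2151 and 2149 CPM with chow and 3481 and 3736 CPM with HFD.

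The resident stage was then divided by its C1q level, at 15050 and 21161 CPM of the cell, into tertiles over all mice. The division was added after the data had been seen. On chow the summed level of the members was 1437 and 1347 CPM in the lowest, 1383 and 1250 CPM in the middle and 1621 and 1342 CPM in the highest tertile. On HFD the sum went from 3588 and 4037 CPM in the lowest through 2200 and 2843 CPM in the middle to 1843 and 2142 CPM in the highest tertile. Of 8 members, 6 were higher on HFD in the lowest tertile (5.4% of 4793 genes), 2 in the middle (Eno1 and Ldha; 2.43% of 5141 genes) and 0 in the highest (0.759% of 5135 genes; 3 members at an unadjusted p under 0.05, and 0 by DESeq2 and the likelihood-ratio test). In the lowest tertile Pgam1 (log2 fold change 1.18, edgeR adjusted p = 0.013) was called with the likelihood-ratio test (0.0011), without TMM (0.0041) and with no filter (7.6e-07). Without single mice its log2 fold change there ranged from 0.67 to 1.75, and that of Tpi1 from 1.016 to 1.225. The calls in the middle tertile depended on which mouse was left out, both for the members and over all genes. Without single mice, the log2 fold change in this tertile ranged from 1.13 to 2.06 for Eno1 and from 0.79 to 1.19 for Ldha.

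The size of the diet effect was compared between the lowest and the highest tertile, and Pgk1 had the largest difference. It stood at 114 and 135 CPM with chow and 397 and 440.4 CPM with HFD in the lowest tertile, and at 146 and 129 CPM against 166 and 169 CPM in the highest. The difference between these diet effects was 1.34 on the log2 scale (SE 0.23, edgeR adjusted p = 0.0020). Tpi1 stood at 88.9 and 105 CPM against 232 and 241 CPM in the lowest tertile, and in the highest the HFD mice, at 96.4 and 98.9 CPM, lay below the chow mice, at 108 and 106 CPM. Its difference between diet effects was 1.29 (SE 0.25, edgeR adjusted p = 0.0055). Aldoa (1.13, edgeR adjusted p = 0.0015), Pkm (0.84, 0.0084) and Ldha (0.80, 0.0097) were called too, so that 5 of 8 members were called against 0.28% of the 5350 genes tested. In the highest tertile Ldha stood at 389 and 326 CPM with chow and 537 and 602 CPM with HFD (log2 fold change 0.64, SE 0.18, edgeR adjusted p = 0.078). DESeq2 called 2 of the 8. Without chow replicate 9, chow replicate 11, HFD replicate 1 or HFD replicate 3, left out in turn, edgeR called 0 of 8, with log2 differences of the 5 genes between 0.71 and 1.57 and adjusted p between 0.018 and 0.22.

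The lowest tertile was not equal between diets. It held 189 and 400 cells on chow and 243 and 409 on HFD, C1qa stood at 3886 and 4034 CPM with chow against 2747 and 2643 CPM with HFD, and the monocyte gene Plac8 at 131 and 425 against 2788 and 3500 CPM. In the highest tertile C1qa overlapped between diets (8675 and 9256 against 9549 and 9240 CPM), while Plac8 stood at 37.8 and 64.3 against 528 and 544 CPM. The part of these differences was not tested. Cells were also compared in 5 bins of fixed C1q level, as a description added after the data had been seen. In cells between 2355 and 5000 CPM of C1q, where C1q was 3975 and 3436 CPM with chow and 3651 and 3821 CPM with HFD, the members summed to 1506 and 1586 CPM with chow (19 and 37 cells) and 4202 and 4417 CPM with HFD (59 and 96 cells). Between 5000 and 10000 CPM they summed to 1639 and 1719 against 3517 and 4156 CPM, and between 10000 and 15000 CPM to 1363 and 1198 against 3279 and 3661 CPM. The bin from 15000 to 20000 CPM gave 1358 and 1252 against 2227 and 2975 CPM, and the cells above it 1588 and 1324 against 1888 and 2144 CPM. In each bin the HFD sums exceeded both chow sums, and the gap was smallest in the cells with the most C1q.

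**Figure D3:**
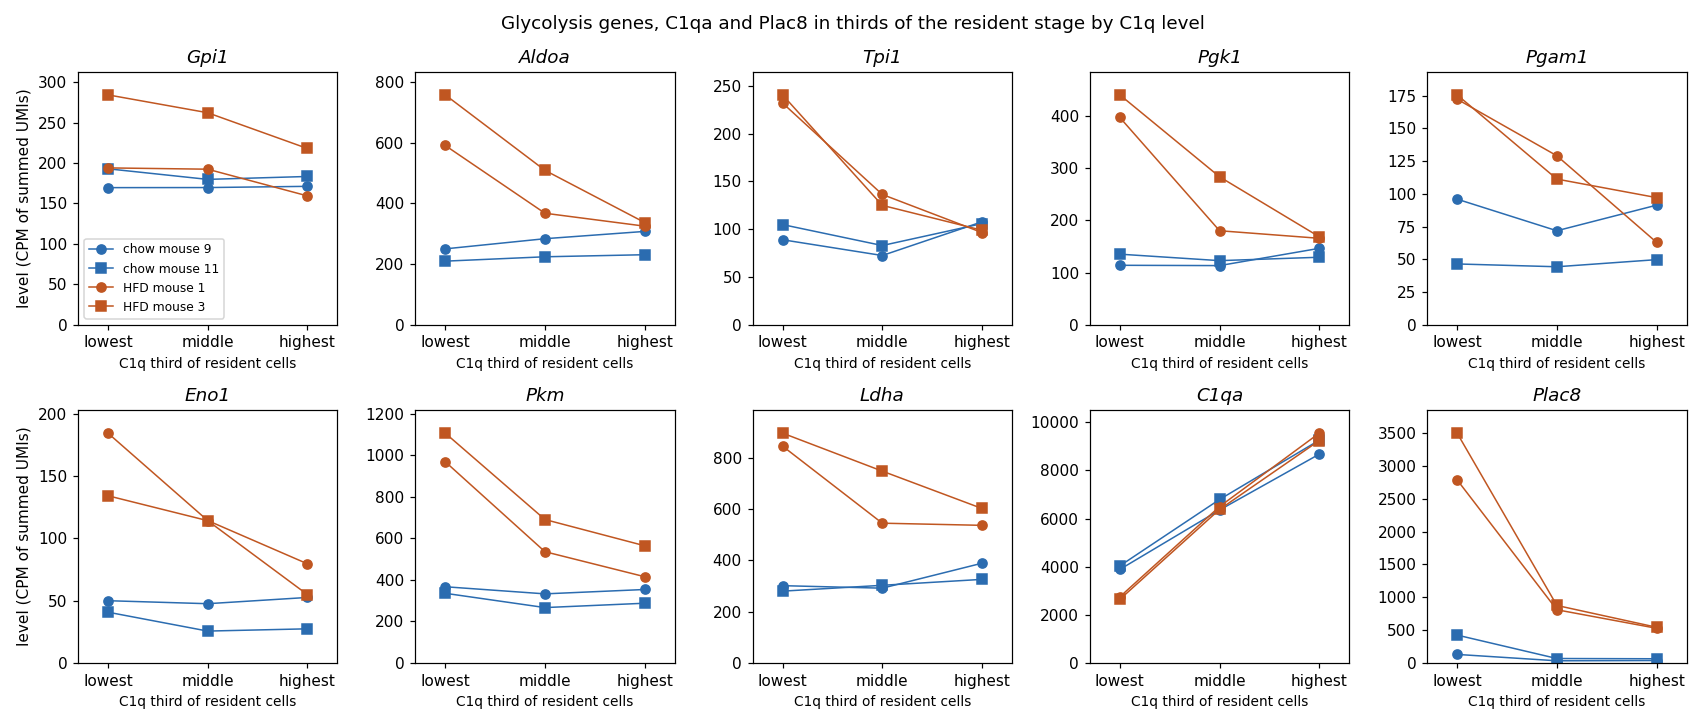
Level in CPM (vertical axes, from 0) of 8 glycolysis genes, C1qa and Plac8 in tertiles of resident cells by C1q level, with 1 line per mouse (blue for chow, orange for HFD). Both HFD lines of each of the 8 glycolysis genes are lower in the highest than in the lowest tertile, as for Pgk1 from 397 and 440.4 CPM to 166 and 169 CPM.

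Because 6 members rose together, their promoters are shown, as RefSeq windows of 250 bases before to 50 after a gene start (GRCm38.p6), written 5′ to 3′ on the strand of the gene. Capitals mark the core letters that HIF binds, searched on both strands. One form, here the A core, is spelled ACGTG and was held by 19.6% of the windows of all genes. The other form, here the G core, is spelled GCGTG and was held by 32.4% of the 32851 windows of all genes, and either by 43.8%. All 10 listed genes had a window, 16 in all and some of them overlapping, and 12 windows of 8 genes held either core. The windows of Gpi1 and Tpi1 held none, which says only that these letters are not in them. The E-box CACGTG, read by MYC and other factors, holds the A core on both strands and occurred in 1 of the 16 windows, that of Ldha (7.15% of all windows). The letters of STAT sites, TTCNNNGAA, occurred in none of the 16 (8.30% of all windows). One window each is given for the 6 called genes, and that of Gpi1, which was not called, for comparison. Where a gene had several windows, one with the most matches was taken, and another window of Pkm and another of Aldoa held none, while that of Ldha held 2 matches of the G core and no A core or E-box. The called gene Tpi1 and the uncalled Gpi1 thus both lack these letters, while Pgam1, whose call depended on the setting, holds 1 match of the A core and 2 of the G core.
Ldha, chr7:46845554-46845853, plus strand: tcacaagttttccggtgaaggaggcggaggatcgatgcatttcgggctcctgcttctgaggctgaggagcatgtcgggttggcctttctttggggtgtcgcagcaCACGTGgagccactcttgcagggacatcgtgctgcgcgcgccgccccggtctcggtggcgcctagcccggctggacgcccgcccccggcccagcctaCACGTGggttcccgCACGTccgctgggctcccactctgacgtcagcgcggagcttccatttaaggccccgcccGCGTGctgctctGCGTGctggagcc
Pgk1, chrX:106186850-106187149, plus strand: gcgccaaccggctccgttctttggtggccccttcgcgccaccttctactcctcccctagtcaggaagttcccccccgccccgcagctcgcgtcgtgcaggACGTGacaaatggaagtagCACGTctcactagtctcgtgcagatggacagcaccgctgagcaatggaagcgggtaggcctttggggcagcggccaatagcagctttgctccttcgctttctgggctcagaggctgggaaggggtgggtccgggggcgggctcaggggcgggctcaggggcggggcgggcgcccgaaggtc
Pkm, chr9:59656977-59657276, plus strand: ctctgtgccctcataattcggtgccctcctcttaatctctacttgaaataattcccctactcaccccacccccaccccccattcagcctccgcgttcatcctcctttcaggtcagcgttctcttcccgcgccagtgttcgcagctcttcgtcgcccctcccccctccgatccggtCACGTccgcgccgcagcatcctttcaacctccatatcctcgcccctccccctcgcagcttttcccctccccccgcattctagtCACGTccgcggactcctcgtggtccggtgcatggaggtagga
Aldoa, chr7:126799129-126799428, minus strand: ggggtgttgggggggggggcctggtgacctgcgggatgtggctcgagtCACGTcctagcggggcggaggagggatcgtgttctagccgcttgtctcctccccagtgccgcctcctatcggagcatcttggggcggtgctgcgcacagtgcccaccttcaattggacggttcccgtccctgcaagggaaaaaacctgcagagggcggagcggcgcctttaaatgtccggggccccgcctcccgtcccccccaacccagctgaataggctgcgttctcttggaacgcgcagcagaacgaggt
Eno1, chr4:150236947-150237246, plus strand: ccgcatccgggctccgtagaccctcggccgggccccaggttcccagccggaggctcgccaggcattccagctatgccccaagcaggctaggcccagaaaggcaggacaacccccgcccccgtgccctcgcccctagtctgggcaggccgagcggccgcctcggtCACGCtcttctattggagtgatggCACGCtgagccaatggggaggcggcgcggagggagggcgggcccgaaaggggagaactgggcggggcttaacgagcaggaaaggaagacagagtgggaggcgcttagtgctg
Tpi1, chr6:124814109-124814408, minus strand: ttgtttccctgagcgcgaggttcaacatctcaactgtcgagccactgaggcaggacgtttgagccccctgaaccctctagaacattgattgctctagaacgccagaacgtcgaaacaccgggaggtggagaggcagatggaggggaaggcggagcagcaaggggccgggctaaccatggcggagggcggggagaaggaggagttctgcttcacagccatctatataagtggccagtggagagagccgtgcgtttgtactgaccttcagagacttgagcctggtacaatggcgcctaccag
Gpi1, chr7:34230287-34230586, minus strand: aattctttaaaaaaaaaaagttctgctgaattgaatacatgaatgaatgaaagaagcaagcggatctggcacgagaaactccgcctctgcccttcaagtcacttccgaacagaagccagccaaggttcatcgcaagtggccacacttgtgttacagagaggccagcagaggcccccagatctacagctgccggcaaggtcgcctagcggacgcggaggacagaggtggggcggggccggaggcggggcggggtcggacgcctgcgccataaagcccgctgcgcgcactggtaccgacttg
In the Ldha window printed here, the first 25 bases from the RefSeq start occurred in no GENCODE transcript of the gene, whereas those of its other window did. The printed window held the most matches, 5 of the A core (4 of them from 2 E-boxes, each read on both strands) and 2 of the G core. A match of these letters is a description of the window and not a site of binding.

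Genes around the pathway were described by lists, which like the members were chosen with earlier results known. In the resident stage, 3 of 11 tested genes of other glycolysis and glucose uptake steps were higher on HFD and none was lower, where 271 of the 5065 genes tested (5.35%) were higher and 260 lower, with a median log2 fold change of -0.10 beside -0.02 for all genes tested. Slc16a3, the lactate exporter, stood at 10.5 and 11.02 CPM with chow and 87.2 and 79.5 CPM with HFD (log2 fold change 2.80, SE 0.19, edgeR adjusted p = 1.0e-04). It carries the product of Ldha out of the cell. Pfkp, the platelet-type phosphofructokinase, rose from 35.3 and 31.6 CPM to 142 and 152 CPM (log2 fold change 2.00, SE 0.16, edgeR adjusted p = 1.7e-04). Hk3, a hexokinase of myeloid cells, rose from 18.4 and 23.0 CPM to 62.5 and 63.1 CPM (log2 fold change 1.43, SE 0.19, edgeR adjusted p = 0.0018). The other hexokinase, Hk2, overlapped between diets at 64.2 and 88.7 against 88.8 and 71.0 CPM (log2 fold change -0.10), and Pfkfb3, which makes the activator of phosphofructokinase, stood lower on HFD without passing (45.8 and 46.2 against 32.3 and 31.03 CPM, log2 fold change -0.69, edgeR adjusted p = 0.027). The uptake genes Slc2a6 (4.38 and 5.04 against 22.1 and 38.2 CPM) and Slc2a3 (at most 1.99 CPM) failed the filter in this stage. The diet effect differed between resident cells and monocytes for 1 of 12 genes of this list, Slc16a3 (difference 3.19, SE 0.32, edgeR adjusted p = 2.4e-05), against 0.969% of the 5365 genes tested. In monocytes it stood at 200.3 and 170.3 CPM with chow and 149.9 and 144 CPM with HFD.

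Among 16 HIF targets outside glycolysis, 4 of 9 tested in the resident stage were higher on HFD, 5 were not called and none was lower, against 5.35% of all genes called higher. Mif, a cytokine, rose from 45.8 and 51.0 CPM to 142 and 160.2 CPM (log2 fold change 1.49), Higd1a, a mitochondrial protein, from 39.1 and 39.0 CPM to 104 and 126 CPM (1.41), Ndrg1 from 14.3 and 8.89 CPM to 53.8 and 41.7 CPM (1.94) and Ddit4, an inhibitor of mTORC1, from 14.0 and 16.7 CPM to 35.5 and 43.5 CPM (1.21), with edgeR adjusted p between 6.1e-04 and 0.0071. Hif1a stood at 7.30 and 4.12 CPM with chow and 13.5 and 11.8 CPM with HFD and, like Egln3 and Pdk1, was below the filter in this stage. Of 8 tested genes of mTORC1 and nutrient sensing, 1 was lower on HFD and none was higher, where 260 of the 5065 genes tested were lower. This was Sesn1, an mTORC1 inhibitor, at 27.7 and 34.6 CPM with chow and 11.8 and 8.20 CPM with HFD (log2 fold change -1.83, edgeR adjusted p = 0.0034). Of 7 genes that act on the entry of pyruvate into mitochondria, for or against it, 1 was higher, Pdk3, a kinase that inhibits pyruvate dehydrogenase (18.7 and 17.4 against 52.8 and 65.3 CPM, log2 fold change 1.58, edgeR adjusted p = 0.0014). In the TCA cycle 3 of 19 were higher, 16 were not called and none was lower, Mdh2 by 1.04, Suclg1 by 0.87 and Sdhb by 0.83 on the log2 scale. None of 4 tested pentose phosphate genes, 4 genes of gluconeogenesis and glycogen, or 3 genes of HIF and its partners was called by edgeR in this stage. In the monocyte and intermediate stages edgeR called none of any list between diets, where it called 0.513% and 0.0626% of all genes tested.

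**Figure D4:**
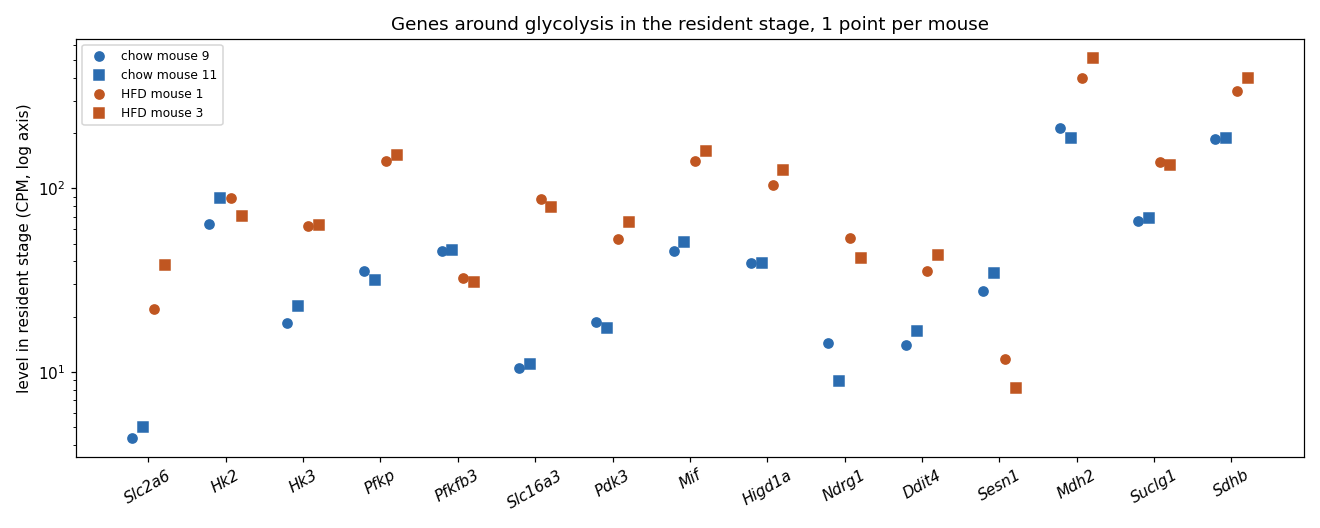
Level in the resident stage (vertical axis, CPM on a log scale) of 15 genes around glycolysis, with 1 point per mouse (blue for chow, orange for HFD). Slc16a3 shows the widest gap between diets, from 10.5 and 11.02 to 87.2 and 79.5 CPM, while the points of Hk2 overlap.

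Along maturation, with all 4 mice, genes of the same list were called in both directions. Of 12 other glycolysis and uptake genes tested, 3 were higher in resident than in monocyte stage (Aldoc by 2.64, Pfkfb3 by 1.68 and Hk2 by 1.03 on the log2 scale) and 3 were lower, among them Slc2a6 (-2.18) and Slc16a3 (-1.89), where 531 of all 5554 genes tested were higher and 515 lower. Of 5 pentose phosphate genes Taldo1 (-0.89) and Pgd (-0.74) were lower. Of 6 genes of gluconeogenesis and glycogen Pygl, the glycogen phosphorylase, was lower (-2.76).

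Gpi1 varied least like the other members. Over 14 sums of stage and mouse with at least 20 cells, Pearson's r of log2(CPM + 1) was 0.90 between Ldha and Tpi1, 0.89 between Eno1 and Pkm, 0.88 between Aldoa and Ldha and between Eno1 and Pgam1, and at most 0.47 between Gpi1 and any other member. The genes outside the list whose levels were most like the sum of the members were Ndufa3 (r = 0.973), Txn1 (0.966), Cox7b (0.965), Psma2 (0.964) and Vdac2 (0.963), of 5553 genes. The 14 sums share mice, libraries and stages, and these values are a description.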

How the data were processed

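The authors deposited raw UMI counts of the cells and genes that passed their filters, without normalization; the submitters' processing notes name bustools (0.39.2) and kallisto (0.46.0). Symbols were taken from GENCODE M21 (GRCm38) for 11819 of 11820 identifiers. Whether the counting used strand is not given in the sources used here. Stage thresholds were Otsu's on log10(CPM + 100). Within 1.25 times of the thresholds lay 94 (C1q), 96 (MHC class II) and 123 (Ly6c2) cells. Another 235 cells were low in all 3 and entered only the sums over all cells.

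Counts were summed per mouse and stage with at least 20 cells, and a gene was tested where 2 or more sums exceeded 1 CPM and 5% or more of the cells held a UMI, with edgeR (version 4.0.16), TMM, the quasi-likelihood test and Benjamini-Hochberg adjustment over all genes at an FDR of 1%. SE is the log2 fold change divided by the root of F. The stages within 1 mouse share animal and library, so stage contrasts carry the mouse as a block; gate genes were left out of their counts. Prior degrees of freedom were 6.07 in the resident, 12.3 in the monocyte and 5.38 in the intermediate stage. The planned contrasts with the transitional stage over 4 mice were replaced by the intermediate minus monocyte contrast and a fit within HFD mice. Alternatives were DESeq2 (version 1.42.0), the likelihood-ratio test, other scaling, filters, thresholds and cell sets, and leaving out each mouse. Scrublet in scanpy (version 1.11.5) marked 25 cells (0.461%), too few to rely on, so 37 cells with over 3 times the median UMIs of their mouse were also removed. The scripts were tested on simulated data, where most changes of 1 on the log2 scale were missed in the resident diet comparison. The simulated spread was set to the same value for all genes and not taken from these data, so it does not give the power of the real comparison. A member without a call may still differ. The named genes are all members, in each list up to 4 called genes with the largest change, and Hif1a, Egln3, Pdk1, Pfkfb3, Hk2, Hk3, Slc2a3, Slc2a6 and Slc16a3. Members, lists and tests were chosen with earlier results of these data known. Mice, not cells, are the replicates. For comparisons between diets, p-values measure the spread between the libraries, each of another animal. Where a fit carries the mouse as a term, they measure the spread between stages or tertiles that is left within mice. Fits within 1 diet rest on 2 mice. Empty droplets were not analysed here.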

Additional observations from a re-analysis of the deposited data

Results flagged for a closer look

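The diet effect differed between the lowest and the highest C1q tertile of resident cells for 5 members by a test of the difference itself (edgeR, FDR 1%). The difference in log2 fold change was 1.34 for Pgk1, 1.29 for Tpi1, 1.13 for Aldoa, 0.84 for Pkm and 0.80 for Ldha. The tertiles were chosen after the data had been seen, and none of the 5 was called once any 1 mouse was left out.

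The stage contrasts of the 8 tested members were searched for ratios with opposite signs in the mice of each diet. Only Tpi1, between resident and monocyte stage, was found, and how many of all genes show this was not counted. The log2 ratio of CPM of Tpi1, resident over monocyte stage, was -0.40 and -0.56 in the chow mice and 0.50 and 0.32 in the HFD mice, a difference of 0.89 between the means. This difference was not tested in that form. The related edgeR term for the diet effect, resident minus monocyte, was 0.82 (SE 0.30, adjusted p = 0.20) and did not pass the threshold.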

How the results depend on the processing

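Under 18 alternative settings, 1102 of 1272 member values kept their direction and their side of the threshold, 58 gained a call, 51 lost one and 61 changed sign. The cause was not tested. No paired analysis was possible between diets because chow and HFD mice share no replicate numbers. Between stages the mouse was the block, and with no replicate block the count of members lower in the resident than the monocyte stage went from 1 to 0, with Pkm at -0.90. That count was 2 with the likelihood-ratio test, library size without TMM, no filter on low counts, thresholds doubled and chow mice alone, and 1 to 2 without single mice. Members higher with HFD in the intermediate stage (0) numbered 2 with the likelihood-ratio test and 4 with no filter, and 0 to 1 without single mice. Without single mice they ranged from 0 to 7 in the resident stage (6), 0 to 7 over all cells (5), 1 to 5 in the middle tertile (2; 1 at equal depth) and 0 to 0 for the lowest minus highest tertile (5; 2 with DESeq2, 3 at equal depth). For resident minus intermediate stage, 1 member was called without TMM and none in HFD mice alone. For intermediate minus monocyte stage, 1 was called with DESeq2, 1 with the likelihood-ratio test, 2 in HFD mice alone and 0 to 1 without single mice. For the diet effect, resident minus monocyte, 2 were called with the likelihood-ratio test, 3 with Ward clusters, and 1 each without TMM, with no filter, with doublets, cycling cells or high-UMI cells removed, and with thresholds halved.

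The following log2 values changed sign. The diet effect in monocytes was -0.078 for Aldoa, -0.28 for Eno1 and 0.25 for Tpi1 with thresholds halved, 0.23 for Tpi1 with thresholds doubled, -0.048 for Aldoa, 0.31 for Tpi1 and 0.31 for Pgam1 with Ward clusters, -0.0012 for Eno1 without cycling cells, 0.078, 0.021 and 0.046 for Tpi1, Pgam1 and Gpi1 without TMM, and 0.14, 0.074 and 0.10 for these 3 with no filter. In the intermediate stage Gpi1 was 0.063 with thresholds halved. Resident minus monocyte, Aldoa was -0.0020 with the likelihood-ratio test, -0.15 without TMM, -0.042 with thresholds halved and -0.42 in chow mice alone. Ldha was -0.045 without TMM and -0.10 in chow mice, Tpi1 -0.26 in chow mice, and Pgk1 0.0022 and Pgam1 0.10 in HFD mice. Resident minus intermediate, Aldoa was 0.085 with no filter, 0.040 at equal depth and 0.053 in HFD mice, and Gpi1 0.049 with thresholds halved and 0.038 in HFD mice. Intermediate minus monocyte, Aldoa was -0.35, Pgk1 -0.11, Tpi1 -0.18 and Pgam1 -0.25 in chow mice, Eno1 0.15 in HFD mice and Gpi1 0.072 at equal depth. At equal depth Gpi1 was -0.30 in the diet effect, resident minus monocyte, and Pgam1 -0.10 in the highest tertile.

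Without single mice, the diet effect in monocytes ranged from -0.083 to 0.18 for Aldoa, -0.37 to 0.58 for Eno1, -0.19 to 0.12 for Tpi1, -0.44 to 0.15 for Pgam1 and -0.23 to 0.076 for Gpi1. Gpi1 ranged from -0.063 to 0.41 in the resident stage, -0.051 to 0.45 in the lowest and -0.19 to 0.26 in the highest tertile, and -0.16 to 0.59 for resident minus monocyte diet effects. Pgam1 ranged from -0.21 to 0.66 in the highest tertile. Resident minus monocyte, the ranges were -0.24 to 0.19 for Aldoa, -0.018 to 0.21 for Ldha and -0.012 to 0.38 for Tpi1. Resident minus intermediate, Aldoa ranged from -0.13 to 0.072. Intermediate minus monocyte, Aldoa ranged from -0.17 to 0.22, Pgk1 from -0.028 to 0.29 and Eno1 from -0.23 to 0.14.

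Library size in place of TMM moved the median log2 difference of all genes to 0.13 in the resident stage, 0.21 over all cells, 0.12 in monocytes, 0.11 in the intermediate stage, -0.10 for resident minus monocyte and -0.19 for resident minus intermediate stage. Gapdh, with 41 UMIs, could not be tested, and the few chow monocyte and intermediate cells limit those stages.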
